A study of Rattus norvegicus with 27 samples.

Results

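The genes described here are 33 rat genes of meningeal fibroblasts and of collagens, taken by symbol from a table of read counts in the medial prefrontal cortex (mPFC). They are 33 of the 36633 genes in the table, after rows of the same gene had been added together. A mean count of at least 10 was reached by 30 of the 33 members and by 11725 genes in all. The other 3 members, Col6a1, Col6a3 and Crabp2, were listed at 0 in every library, as were 21562 genes of the table, among them the widely used matrix genes Hspg2, Nid1 and Lamb1, so a 0 here does not show that the gene was silent.

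RNA came from homogenized bilateral mPFC of 27 adult male Wistar rats, with 1 library per rat. The rats had been tested repeatedly for anxiety-like behavior on a maze, in an open field and in a light-dark box, and tissue was taken 2 weeks after the last test, in a resting state. All 27 form 1 group with no control group, no transgene and no genotype other than the Wistar strain. The labels name "Learned helplessness" as the treatment of every rat, and the labels and the study's methods differ in section position and library kit. The total count per library ran from 4907255 to 12771309, with a median of 8168801. The 16 libraries numbered up to 31 had totals up to 8568317, and the 11 numbered from 32 had at least 9404220, so relations across rats are also given within these 2 sets.

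The meninges are the membranes that wrap the brain, and their fibroblasts lay down fibrillar collagen and small proteoglycans, carry solutes between cerebrospinal fluid and tissue, and release retinoic acid and growth factors. These cells sit on the surface of the cortex and follow the larger vessels inward, so a piece of cortex holds them only where pia or vessel wall came with it. Type I collagen is a triple helix of chains from Col1a1 and Col1a2. Col1a1 is used here as the gene that the other members are set against.

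Of the 29 members tested against Col1a1, 26 rose with it and 0 fell (edgeR's quasi-likelihood test, Benjamini-Hochberg adjusted p under 0.05 over all genes tested). Among all 11914 genes tested, 305 rose, which is 2.56%, and 3 fell. The median slope was 0.69 for the members and -0.002 for all genes, where the slope is the log2 change of a gene for a change of 1 in log2(Col1a1 normalized count + 1). Members that did not pass were the 3 type V collagen genes, Col5a1, Col5a2 and Col5a3. In bulk tissue, fewer cells of a type and less RNA per cell cannot be told apart. Without library 24, the highest in Col1a1, 24 of the 29 members rose (1.95% of all genes), with Col6a2 and Fn1 no longer past the threshold.

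**Figure D1:**
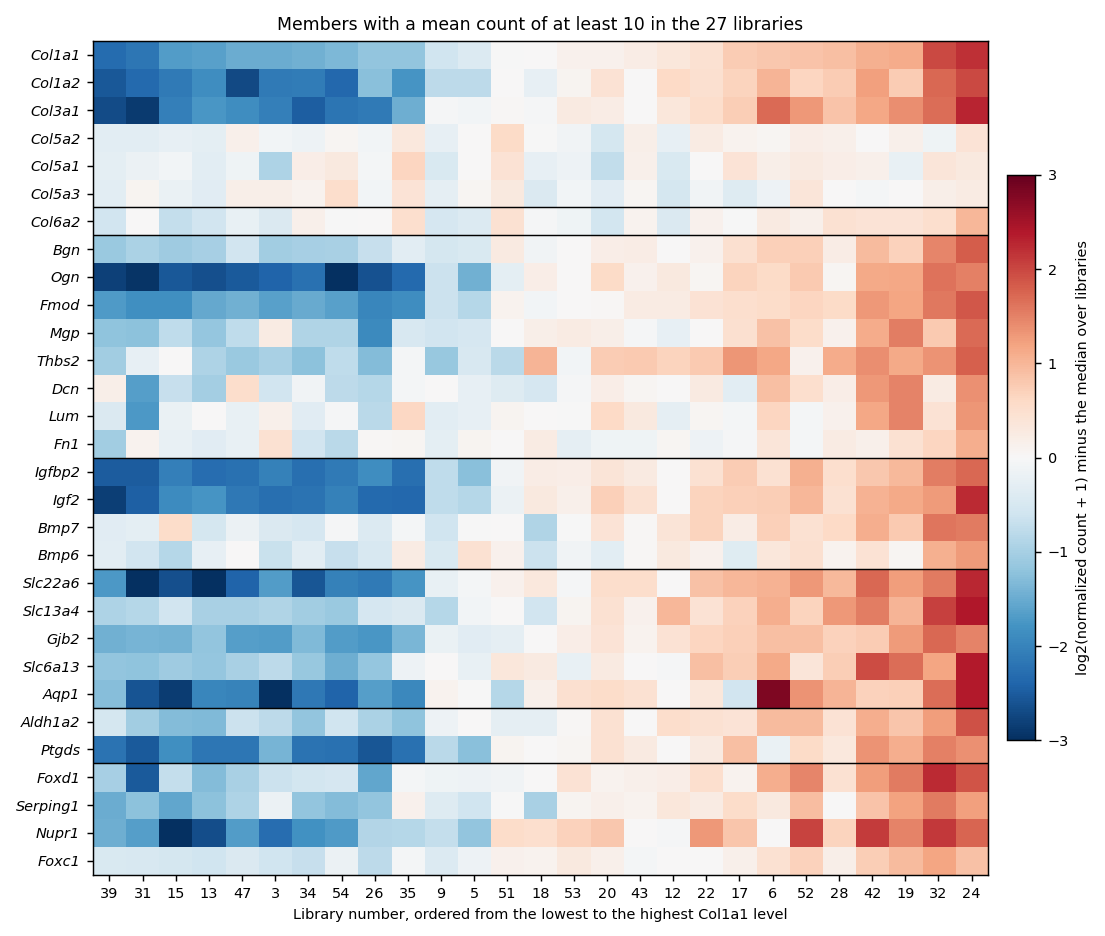
Each row is a member with a mean count of at least 10 and each column a library, ordered from the lowest Col1a1 (left) to the highest (right). The color is log2(normalized count + 1) minus that member's median over the 27 libraries, and black lines part the 7 roles. The 10 columns on the left are low in most rows, while the Col5a1, Col5a2 and Col5a3 rows do not follow this order.

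Promoter sequences were looked at for members that moved with Col1a1 and for 1 that did not. RefSeq promoter windows (build GRCr8) were matched for 21 of the 33 members, which together have 22 windows. The missing entries are those of Col1a1, Col3a1, Col6a2, Dcn, Mgp, Slc6a13, Slc22a6, Fn1, Serping1, Bgn, Thbs2 and Bmp7. The windows of 4 members are printed here as the 250 bases before the annotated start, 5′ to 3′ on the gene's strand: Col1a2, Foxd1 and Aqp1, which rose with Col1a1 and stand for a collagen chain, a transcription factor and a water channel, and Col5a2, the type V chain whose rho with Col1a1 was the highest of those that did not pass. Capitals mark a match on either strand to the TATA box (TATAAA), the CCAAT box (CCAAT) or the GC box (GGGCGG), and no match overlaps another.
Col1a2: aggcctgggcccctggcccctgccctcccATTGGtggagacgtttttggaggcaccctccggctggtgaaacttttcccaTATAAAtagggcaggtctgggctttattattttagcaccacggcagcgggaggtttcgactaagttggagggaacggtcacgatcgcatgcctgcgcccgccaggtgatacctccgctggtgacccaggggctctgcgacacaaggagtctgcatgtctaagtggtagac
Foxd1: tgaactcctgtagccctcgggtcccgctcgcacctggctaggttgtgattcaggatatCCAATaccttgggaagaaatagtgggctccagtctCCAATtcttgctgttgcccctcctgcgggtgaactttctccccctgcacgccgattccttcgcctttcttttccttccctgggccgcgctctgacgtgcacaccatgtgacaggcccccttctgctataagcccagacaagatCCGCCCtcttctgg
Aqp1: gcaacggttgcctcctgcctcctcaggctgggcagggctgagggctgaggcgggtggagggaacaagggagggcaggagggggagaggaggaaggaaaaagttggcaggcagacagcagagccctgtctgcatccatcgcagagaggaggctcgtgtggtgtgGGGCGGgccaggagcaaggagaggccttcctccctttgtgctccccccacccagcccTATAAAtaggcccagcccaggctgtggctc
Col5a2: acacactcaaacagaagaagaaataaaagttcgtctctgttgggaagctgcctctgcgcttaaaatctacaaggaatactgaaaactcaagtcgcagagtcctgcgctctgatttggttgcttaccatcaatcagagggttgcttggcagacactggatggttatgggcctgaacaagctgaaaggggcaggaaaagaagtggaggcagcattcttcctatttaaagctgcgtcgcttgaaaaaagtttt
The Col1a2 window is chr4:33518307-33518556 on the + strand, and it held a TATAAA from 170 to 165 bases before the start and a CCAAT on the opposite strand from 221 to 217. The Foxd1 window is chr2:31436552-31436801 on the + strand, with 2 CCAAT matches and a GGGCGG on the opposite strand from 14 to 9 bases before the start. The Aqp1 window is chr4:85812534-85812783 on the + strand, with a TATAAA from 30 to 25 bases before the start and a GGGCGG from 87 to 82. The Col5a2 window is chr9:55090152-55090401 on the - strand, and none of the 3 strings occurs in it. Over all 33469 windows, TATAAA was found in 12.9%, CCAAT in 34.02% and GGGCGG in 30.5%. Among the 21 members with a window, 4 held TATAAA (Aqp1, Col1a2, Crabp2 and Ogn), 9 held CCAAT and 14 held GGGCGG. Of the other type V genes, which did not pass either, Col5a1 held GGGCGG, and Col5a3 held both CCAAT and GGGCGG. Such matches describe letters only and say nothing of which factor binds.

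Among the fibrillar collagens, Col1a1 (NCBI gene 29393) ran from 33.3 normalized counts in library 39 over a median of 169.6 to 780 in library 24, where a normalized count is the count divided by a size factor for depth. Col1a2, the partner chain, ran from 22.0 over 149.6 to 589, and Col3a1, the type III chain that mixes with type I in soft tissue, from 26.2 over 199 to 977. All 3 were highest in library 24. In raw reads the range of Col1a1 was 28 to 957, so even the lowest library had reads to count. Col1a2 rose with a slope of 1.13 ± 0.05 (SE, n = 27; adjusted p = 1.86e-17 by edgeR) and Col3a1 with 1.20 ± 0.06 (adjusted p = 6.83e-16). Spearman's rho with Col1a1 was 0.969 for Col1a2, the highest of all 11724 genes ranked, and 0.954 for Col3a1, each with a permutation p of 1.0e-05, the smallest that 100000 permutations can give, and an adjusted p of 0.00106. Pearson's r was 0.977 and 0.972, and 0.974 and 0.967 without libraries 39 and 24, the 2 farthest from the median Col1a1. The ratio of Col1a2 to Col1a1 counts stayed between 0.370 and 1.08 over the libraries, while Col1a1 itself differed 23.4-fold.

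The type V chains, which build thin fibrils and start the assembly of type I fibrils, did not share this range. Col5a1 ran from 177 normalized counts over 339 to 529, Col5a2 from 333 over 484 to 721, and Col5a3 from 225 over 326 to 467. Their highest libraries were 35, 51 and 54, of which none was among the 14 highest in Col1a1. Library 35 ranked 18th in Col1a1 yet was among the 5 highest for Col5a1, Col5a2, Col5a3, Col6a2 and Lum. The slopes were 0.09 ± 0.05 for Col5a1 (SE, n = 27; edgeR adjusted p = 0.827), 0.09 ± 0.04 for Col5a2 (adjusted p = 0.397) and 0.002 ± 0.041 for Col5a3 (adjusted p = 0.999). Spearman's rho was 0.376 for Col5a1 (permutation p = 0.0538, adjusted p = 0.66), 0.474 for Col5a2 (p = 0.0134, adjusted p = 0.329) and 0.043 for Col5a3 (p = 0.832, adjusted p = 0.999). Pearson's r was 0.332, 0.426 and 0.011 in the same order, and 0.263, 0.281 and -0.162 without the 2 farthest libraries. Within the 16 libraries up to 31, Col5a2 had a rho of 0.797 and passed the edgeR test (adjusted p = 0.0491), against a rho of 0.191 within the 11 from 32, and the difference between the sets did not pass its own test.

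Col3a1 and Col5a2 are neighbors on chromosome 9 in the RefSeq order, with 0 coding genes between them, and their rho across rats was 0.450. Col3a1 differed 37.2-fold between its highest and lowest library and Col5a2 2.16-fold. Over all 27 libraries the 3 type V genes had higher rho with one another than with Col1a1, with 0.656 for Col5a1 and Col5a2, 0.601 for Col5a1 and Col5a3, and 0.551 for Col5a2 and Col5a3. Within the libraries up to 31 the last 2 were 0.274 and 0.347, and within those from 32 they were 0.845 and 0.618. The order turned within the libraries up to 31, where Col5a2 had a rho of 0.797 with Col1a1 against 0.659 with Col5a1, and Col5a1 had 0.500 with Col1a1 against 0.274 with Col5a3. These pairs were picked after their values were seen and carry no test.

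Of the type VI collagens, which form the beaded microfibrils around cells, only Col6a2 had counts. It ran from 143.6 normalized counts in library 15 over 237 to 476 in library 24. It rose with Col1a1 with a slope of 0.21 ± 0.05 (SE, n = 27; edgeR adjusted p = 0.00552), and its rho was 0.637 (permutation p = 0.0005, adjusted p = 0.028) with an r of 0.633, or 0.507 without the 2 farthest libraries. Its adjusted p in the edgeR test was 0.0892 without library 24 and 0.379 within the libraries from 32. The member closest to Col6a2 was Col5a1 (rho = 0.748), not a type I chain. Its chromosome 20 neighbor Col6a1 was listed at 0 throughout, and without a stated strand or annotation it cannot be told how reads of this pair were assigned.

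**Figure D2:**
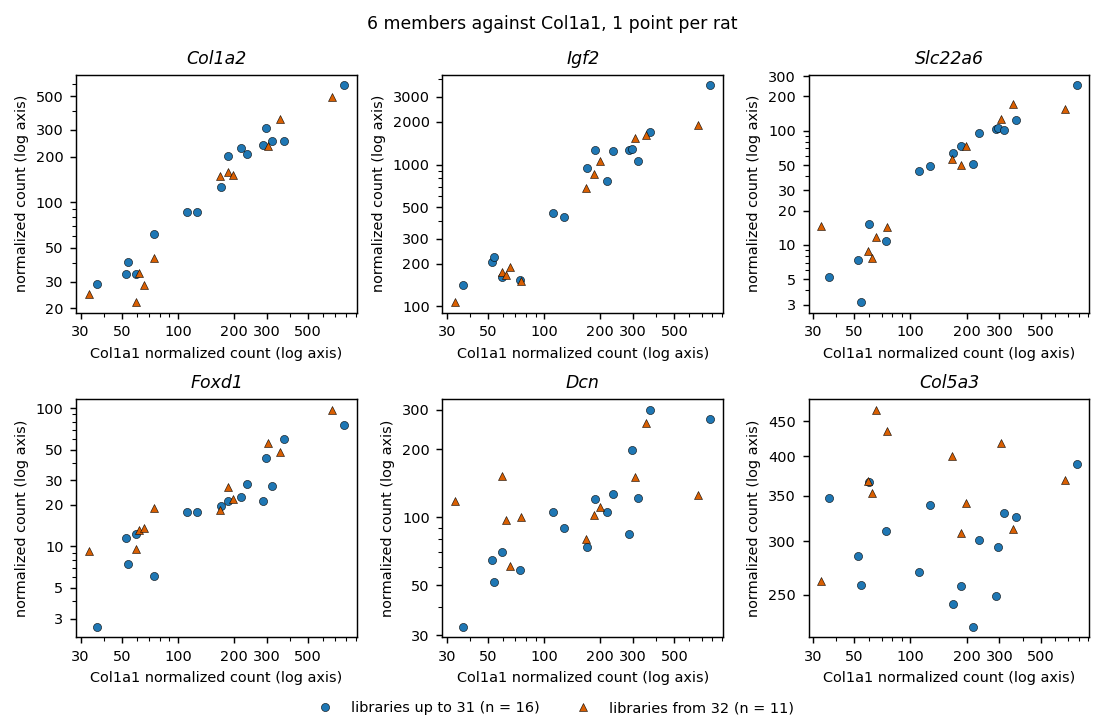
Each panel plots 1 member (vertical, normalized count, log axis) against Col1a1 (horizontal, normalized count, log axis), with 1 point per rat; circles are the 16 libraries up to 31 and triangles the 11 from 32. Col1a2, Igf2, Slc22a6 and Foxd1 climbed along with Col1a1, Dcn had a rho of 0.894 in the circles and 0.345 in the triangles (where it did not pass), and Col5a3 did not (rho = 0.043).

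All 8 proteoglycans and matrix proteins rose with Col1a1, with rho from 0.595 to 0.946. Biglycan (Bgn), which binds collagen and growth factors, ran from 109.2 normalized counts over 237 to 836 (slope 0.64 ± 0.03, SE, n = 27; rho = 0.946). Fibromodulin (Fmod), which sets fibril width, ran from 25.4 over 100.9 to 371, and its slope of 0.95 ± 0.04 lay within 2 SE of 1. The log2 ratio of Fmod to Col1a1 had an SD of 0.29 over the 27 rats, the smallest of the members tested. Osteoglycin (Ogn) ran from 22.7 over 189 to 591 with a slope of 1.22 ± 0.07. Ogn has 2 rows in the table with 51.3% and 48.7% of its reads, and the 2 rows followed each other with a rho of 0.923, so its level depends on adding them.

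Decorin (Dcn) and lumican (Lum), which coat collagen fibrils and are neighbors on chromosome 7, followed Col1a1 less closely. Dcn ran from 32.8 normalized counts in library 31 over 105.5 to 299 in library 19, and Lum from 9.18 over 32.8 to 94.7 in the same 2 libraries. Dcn rose with a slope of 0.39 ± 0.08 (SE, n = 27; edgeR adjusted p = 0.00167; rho = 0.703, permutation adjusted p = 0.00326), and Lum with 0.35 ± 0.07 (adjusted p = 0.00199; rho = 0.656, permutation adjusted p = 0.0209). The permutation adjusted p of Lum was 0.169 without the 2 farthest libraries, 0.259 within the libraries up to 31 and 0.426 within those from 32. Dcn was not low in every library that was low in Col1a1. Library 39, the lowest in Col1a1, had 118 normalized counts of Dcn, and library 47 had 152.7, the 5th highest. Library 32, second in Col1a1 at 671, had 126 of Dcn. Within the libraries up to 31 the rho of Dcn was 0.894, and within those from 32 it was 0.345 (permutation p = 0.297).

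Matrix Gla protein (Mgp), an inhibitor of calcification, ran from 24.2 normalized counts over 94.2 to 307 (slope 0.62 ± 0.06, SE, n = 27; rho = 0.850). Thrombospondin 2 (Thbs2), an antagonist of vessel growth, ran from 9.69 over 25.2 to 89.8 (slope 0.69 ± 0.08; rho = 0.828). Fibronectin (Fn1), an adhesive glycoprotein that vessels and glia also make, had the narrowest range of the 8, from 249 over 517 to 1102, a 4.43-fold spread. Its slope of 0.22 ± 0.05 passed the edgeR test (adjusted p = 0.00254), but its rho of 0.595 did not pass the permutation test over all genes (p = 0.00136, adjusted p = 0.0625). Without library 24 the edgeR adjusted p of Fn1 was 0.0583.

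All 4 growth factor genes and binding protein genes rose with Col1a1. Insulin-like growth factor 2 (Igf2), which meninges and vessels supply to the brain, ran from 107.6 normalized counts in library 39 over 771 to 3616 in library 24 (slope 1.16 ± 0.06, SE, n = 27; edgeR adjusted p = 2.34e-15; rho = 0.931). Igfbp2, which binds IGF proteins in cerebrospinal fluid, ran from 68.9 over 394 to 1312 in the same 2 libraries (slope 1.12 ± 0.05; rho = 0.964), and its closest member was Col1a1. The bone morphogenetic proteins moved less. Bmp7 ran from 18.4 over 35.5 to 110.8 (slope 0.42 ± 0.06; rho = 0.781), and Bmp6 from 60.8 over 110.1 to 269 (slope 0.32 ± 0.05; rho = 0.681).

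The 5 transporters and channels all rose, with rho from 0.895 to 0.949. Slc22a6, an organic anion carrier, ran from 3.18 normalized counts (3 reads) in library 13 over 51.1 to 249 in library 24, the widest log2 spread of the members (SD = 1.68), with a slope of 1.23 ± 0.08 (SE, n = 27; edgeR adjusted p = 4.32e-13). The GABA and taurine carrier Slc6a13 ran from 19.4 over 55.6 to 292, and the sulfate carrier Slc13a4 from 25.3 over 55.4 to 296. Their slopes were 0.83 ± 0.06 and 0.81 ± 0.05. Gjb2, the connexin of leptomeningeal gap junctions, ran from 30.3 over 104.5 to 348 (slope 0.87 ± 0.04).

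Aqp1, whose window is printed above, was the only transporter with its highest value outside libraries 24 and 32. It ran from 4.59 normalized counts over 44.2 to 313 in library 6, which ranked 7th in Col1a1. The ratio of Aqp1 to Col1a1 was 1.06 in library 6, against a median of 0.204 over the libraries. Its slope was 1.16 ± 0.12 (SE, n = 27; edgeR adjusted p = 2.63e-08; rho = 0.895). Aqp1 and several carriers of the list are also made by choroid plexus. Of 7 choroid plexus markers, Folr1 was listed at 0, Ttr ran from 0 to 15.98 normalized counts, Otx2 from 0 to 1.58, and 0 of the 1 tested (Kcne2) rose with Col1a1. A 0 in this table does not show that a gene was silent, and the part of choroid plexus in these members' levels was not tested.

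Aldh1a2, the enzyme that makes retinoic acid in the meninges, ran from 54.04 normalized counts over 135.9 to 510 (slope 0.65 ± 0.05, SE, n = 27; rho = 0.916). Ptgds, the prostaglandin D synthase of leptomeninges and oligodendrocytes, ran from 658 over 3920 to 11145 (slope 1.05 ± 0.07; rho = 0.892). The summed level of the oligodendrocyte markers had a rho of -0.454 with Col1a1, which did not pass (permutation p = 0.0185, adjusted p = 0.051 over 11 relations), and the part of these cells in the level of Ptgds was not tested. Crabp2, the carrier of retinoic acid in the cell, was the third gene listed at 0.

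The 4 regulators rose as well. Foxd1, a forkhead factor, ran from 2.62 normalized counts (2 reads) in library 31 over 19.7 to 96.8 in library 32 (slope 0.82 ± 0.06, SE, n = 27; edgeR adjusted p = 3.12e-11), and its rho of 0.957 was the 4th highest of all 11724 genes at a mean of only 26.9 normalized counts. Foxc1, a forkhead factor needed for the meninges to form, ran from 70.3 over 121.4 to 278, a 3.95-fold spread with a slope of 0.40 ± 0.04 and a rho of 0.901. The stress-induced regulator Nupr1 ran from 1.05 (1 read) over 18.8 to 85.6 (slope 1.16 ± 0.10; rho = 0.907). Serping1, the inhibitor of the first complement component, ran from 25.2 over 75.7 to 223 (slope 0.66 ± 0.06; rho = 0.912). A close rank relation thus came with slopes from 0.40 to 1.16 among the 4.

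**Figure D3:**
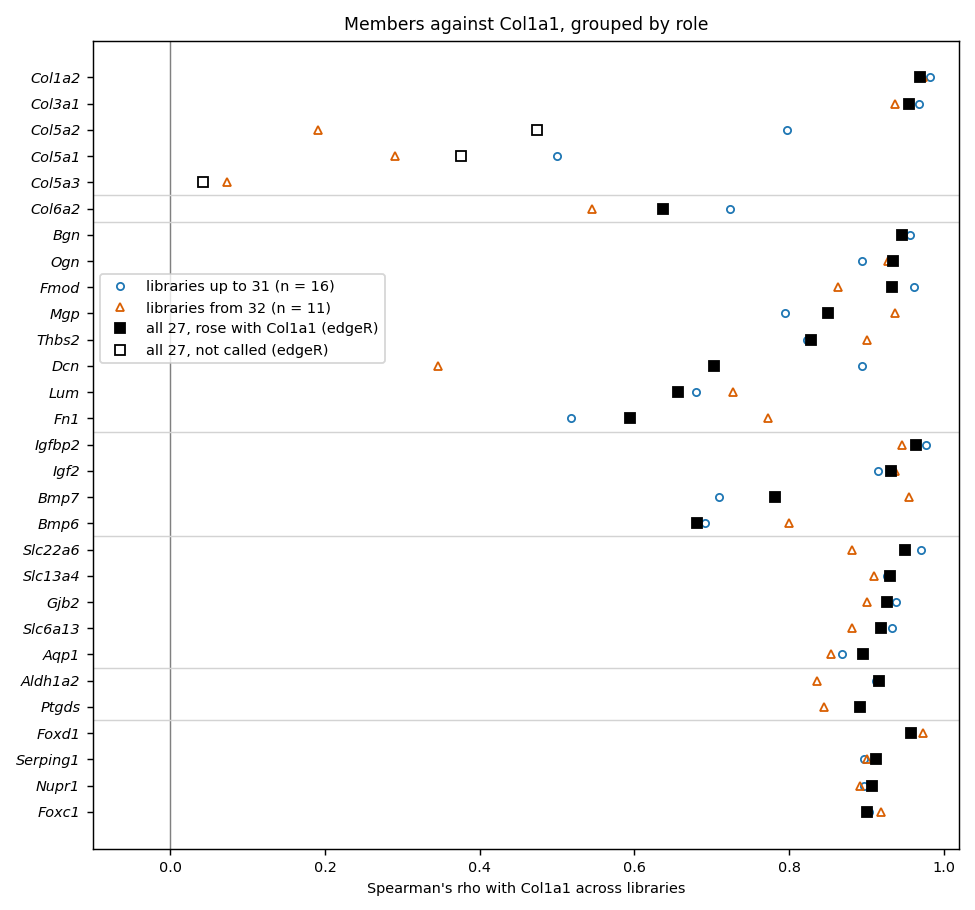
Spearman's rho of each tested member with Col1a1 (horizontal), with members in rows parted by role. Squares are all 27 libraries, filled where edgeR called a rise; open circles are the 16 libraries up to 31 and open triangles the 11 from 32. The transporters and regulators sit between 0.855 and 0.973 in every set, and the 3 open squares are the type V collagens.

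By the permutation test of rho, 25 of the 29 members passed, against 1.99% of all 11724 genes. The median rho was 0.907 for the members and -0.021 for all genes. A rho of at least 0.9 was reached by 16 members and by 37 genes in all (0.316%). The 2 tests differed on Fn1 alone. The slopes ran from 0.002 to 1.23, of which 9 were above 1. In the sets, the median rho of the members was 0.897 up to 31 and 0.891 from 32, and 22 and 10 members passed in the smaller sets of 16 and 11, against 1.08% and 0.461% of all genes.

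Each of the 30 members varied between rats beyond Poisson counting noise (chi-square test of dispersion, highest adjusted p = 1.76e-35), as did 89.8% of all genes, so passing says little about the members. Measured as the SD on the scale of log2(normalized count + 1), the median spread was 1.00 for the members and 0.19 for all genes, and 23 of the 30 members lay above the 95th percentile of all genes, 0.58. The 7 below it were Col5a1, Col5a2, Col5a3, Col6a2, Fn1, Foxc1 and Bmp6. Counting noise made up between 0.0389% (Ptgds) and 10.7% (Lum) of a member's variance.

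No library had a Col1a1 level between 74.6 and 111.1 normalized counts, and a wider step lay between 369 and 671. The parting at 100 is thus a choice, and whether the levels form separate states was not tested. In 10 libraries Col1a1 was under 100 normalized counts, from 33.3 to 74.6, and in 17 it was from 111.1 to 780. These are samples parted by the Col1a1 level after it was seen, not groups of the study. The 10 are 5 libraries up to 31 and 5 from 32, and their total counts lay inside the range of the other 17 (4907255 to 12771309). In 11 of the 29 other members all 17 values lay above all 10, and in the other 18 the values overlapped. Of all genes, 0.196% (23 of 11724) did not overlap. Since the libraries were parted by Col1a1, this count describes again that the members follow Col1a1 and is no separate evidence. The 11 are Col1a2, Col3a1, Igf2, Igfbp2, Ogn, Fmod, Slc22a6, Aldh1a2, Ptgds, Gjb2 and Aqp1.

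Igf2 ran from 107.6 to 225 normalized counts in the 10 libraries and from 429 to 3616 in the 17. Slc22a6 had from 3.18 to 15.3 and from 43.9 to 249, and Col3a1 from 26.2 to 71.9 and from 187 to 977. These genes are among the 11 without overlap, so the empty interval between their ranges follows from that choice. Members that overlapped include Bgn, with 109 to 190 and 165 to 836.

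The correlations were also computed on each side of a Col1a1 level of 100 normalized counts. Within the 17 libraries the median rho of the members with Col1a1 was 0.836, and 19 of 29 members passed the permutation test over all genes, against 0.571% of all genes (67 of 11724). Fmod had a rho of 0.975, Col1a2 0.961, Gjb2 0.953, Igfbp2 0.944 and Igf2 0.909 there. Within the 10 libraries the median rho was 0.309, and 0 members and 0 of all genes passed after adjustment, with 4 members and 716 of all 11724 genes (6.11%) at a positive rho with an unadjusted permutation p under 0.05 and no other tool run on these 10. Igf2 had a rho of 0.079 there, Fmod -0.200, Gjb2 -0.236 and Ptgds -0.297. Col1a1 spans only 33.3 to 74.6 normalized counts in the 10 libraries, and whether this narrow range lowers the correlations was not tested. The 4 members, chosen after their values were seen, were Col5a1, Col5a2, Col6a2 and Serping1. The type V genes had rho of 0.685 (Col5a1), 0.794 (Col5a2) and 0.636 (Col5a3) with Col1a1 among the 10 low libraries, and 0.424, 0.297 and 0.324 among the 17.

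Over the 435 pairs of the 30 members the median rho was 0.770, against -0.005 over all pairs of genes. It was 0.785 up to 31, 0.818 from 32, and 0.758 without libraries 39 and 24. Within the 17 libraries it was 0.733 and within the 10 it was 0.164. A rho of at least 0.8 was reached by 200 of the 435 pairs, and 12 pairs lay below 0, with Col5a3 as 1 of the genes in each. Col5a3 had a median rho of 0.031 with the other members, and was the member farthest from 26 of the other 29.

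**Figure D4:**
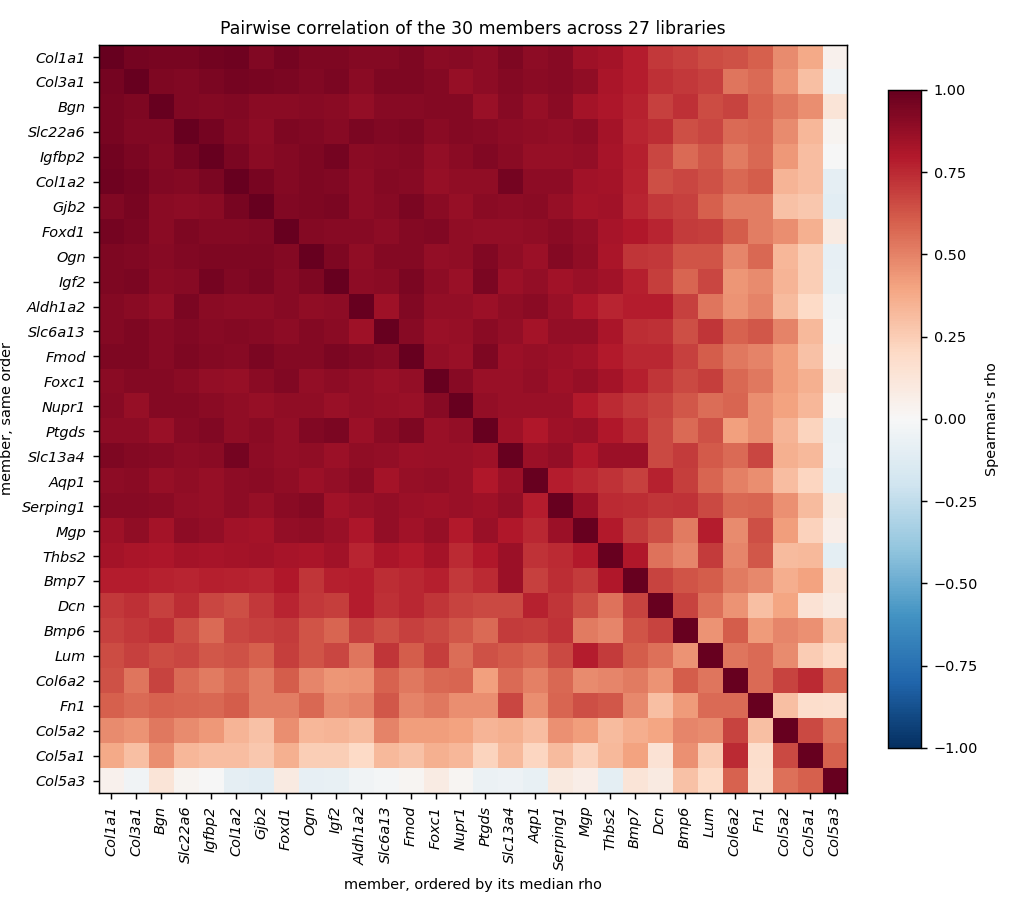
Spearman's rho of each pair of the 30 members over the 27 libraries, with members ordered by their median rho in rows and columns. A dark block of members with pairwise rho near or above 0.8 fills the upper left; the paler corner at the lower right holds Col6a2, Fn1, Col5a2, Col5a1 and Col5a3, of which the 4 collagens have rho of 0.551 to 0.748 among themselves and Fn1 has 0.170 to 0.300 with the type V genes.

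Between the 16 libraries up to 31 and the 11 from 32, 2 of the 30 members were lower in the first set and 0 were higher (edgeR), against 9.72% and 8.59% of all 11711 genes. Col5a3 had 299 ± 47.7 normalized counts (SD, n = 16) up to 31 and 367 ± 60.8 (SD, n = 11) from 32, a log2 difference of -0.30 ± 0.09 (SE; adjusted p = 0.015 by edgeR), which stayed past the threshold with each of the 27 libraries left out in turn. Col5a1 had 312 ± 74.3 and 390 ± 73.0, a log2 difference of -0.32 ± 0.12 (adjusted p = 0.0481), which stayed past it in 6 of those 27 fits. The slope on Col1a1 differed between the sets for 0 members and 0 of 12100 genes, 0%, by edgeR, and by DESeq2 for 0 members and 2 genes. At an unadjusted p under 0.05 there were 265 genes and 1 member, Dcn, whose slope was higher by 0.45 up to 31 (edgeR adjusted p = 1.00).

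Outside the list, the 10 genes with the highest rho with Col1a1 over 27 rats were picked among genes that have a symbol. A gene without a symbol, ranked between Col1a2 and Igfbp2, was thus left out. The 10 were Cdkn1c, Wnt6, Tbx18, PCOLCE2, Pcolce, Slc13a3, Fmo1, Foxc2, Aebp1 and Kank2. Their rho ran from 0.921 to 0.935. Cdkn1c, a brake on cell division, ran from 34.1 normalized counts over 66.4 to 143.1 (slope 0.42 ± 0.04, SE, n = 27; edgeR adjusted p = 7.85e-10). The mesenchymal factor Tbx18 ran from 15.5 over 51.3 to 166 (slope 0.81 ± 0.06). Wnt6 was at 0 in its lowest library and reached 100.8, with the steepest slope of the 10 at 1.55 ± 0.13. Both procollagen C-proteinase enhancers are among the 10, Pcolce with 8.48 to 135.8 normalized counts and PCOLCE2 with 4.65 to 75.6.

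Genes that process collagen were taken as a list. Of 15 collagen maturation genes tested, 4 rose with Col1a1 and 0 fell, and the median slope of the list was 0.08. Those that rose were Pcolce (rho = 0.932), the N-propeptidase Adamts2 (rho = 0.676), the collagen chaperone Serpinh1 (rho = 0.668, slope 0.16 ± 0.03, SE, n = 27) and the crosslinking enzyme Loxl1 (rho = 0.606). The prolyl hydroxylase gene P4ha1 had a rho of -0.306 and an edgeR adjusted p of 0.999.

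Among the other pathway lists, 2 of 7 matrix turnover genes rose, namely the inhibitors Timp1 (rho = 0.788) and Timp3 (rho = 0.733), while the proteases Mmp2 (rho = 0.192) and Fap (rho = -0.099) did not pass. Of 11 basement membrane genes, 6 were listed at 0 in every library (Col4a2, Lama2, Lamb1, Nid1, Hspg2 and Col15a1), and of the 5 tested, Nid2, Lama1 and Col18a1 rose. Among the retinoid handling genes, the enzyme Aldh1a1 (rho = 0.853) and the retinol carrier of plasma Rbp4 (rho = 0.611) rose. Rdh10 (rho = -0.205) and Crabp1 (rho = -0.136) did not pass, and the median slope of the 6 tested was 0.09. Of 14 IGF and BMP pathway genes 2 rose, the ligands Bmp5 (rho = 0.741) and Bmp4 (rho = 0.511), and the receptors Bmpr1a (rho = -0.163) and Bmpr2 (rho = -0.315) did not pass. The 2 other small proteoglycans tested, Omd (rho = 0.850) and Prelp (rho = 0.607), both rose. None of the 49 genes tested in these 6 lists fell. Only 3 of all 11914 genes did, so this says little about the lists.

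Markers of other cell types were set beside Col1a1 to see what else moved with it. Of 10 tested markers of other mesenchymal cells and fibroblasts 4 rose, namely Tbx18, Twist1, Lama1 and Slc47a1, while Vim (rho = 0.302) and S100a6 (rho = 0.234) did not pass. Vim had a rho of 0.238 up to 31 and 0.773 from 32, and S100a6 had 0.118 and 0.818, a difference between the sets that is given here as a description. Of 9 mural markers 3 rose, and these were the contractile genes of smooth muscle, Myh11 (rho = 0.855), Acta2 (rho = 0.830) and Tagln (rho = 0.799). The pericyte genes Kcnj8 (rho = 0.049) and Abcc9 (rho = 0.044) did not pass. The summed mural level ran from 1108 to 4582 normalized counts and followed Col1a1 with a rho of 0.775 (permutation p = 1.0e-05, adjusted p = 1.1e-04 over 11 relations), an r of 0.714, or 0.626 without the 2 farthest libraries, and a rho of 0.788 up to 31 and 0.736 from 32. Its part in the members' changes was not tested.

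Of 3 ependymal markers tested 1 rose, Rarres2, and the summed level, 83.0 to 194 normalized counts, of which Rarres2 made up 75.01%, had a rho of 0.714 (adjusted p = 4.95e-04, r = 0.705, or 0.643 without the 2 farthest libraries). Its other defining marker, Foxj1, had a rho of 0.269, and Tmem212 ran from 0 to 10.97. Of 5 border macrophage markers Cd163, Pf4 and F13a1 rose, and Lyve1 (rho = 0.594) and Mrc1 (rho = 0.128) did not pass. The summed level, 61.2 to 474, of which Mrc1 made up 74.6%, had a rho of 0.292 (adjusted p = 0.258). Of 10 endothelial markers only Vwf, the gene of large vessels, rose (rho = 0.640), with a rho of 0.374 for the sum (adjusted p = 0.121). Of 4 blood markers tested Hbb-bs rose, Hba-a2 was listed at 0, and the sum, 1368 to 6654, had a rho of 0.493 (adjusted p = 0.0347, r = 0.529), which was 0.762 up to 31 and 0.236 from 32. The part of these cells in the members' changes was not tested.

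No marker of microglia, astrocytes, oligodendrocytes or neurons rose or fell with Col1a1 among the 21 tested. Of all 11914 genes, 2.56% rose and 3 genes fell. The neuron sum had a rho of -0.094 (adjusted p = 0.704), the astrocyte sum -0.147 (adjusted p = 0.566) and the total count 0.033 (adjusted p = 0.869). Actb, at 13553 ± 2078 normalized counts (SD, n = 27), had a rho of 0.021, and Gapdh, at 4874 ± 366, had -0.383, and neither passed the edgeR test (adjusted p = 0.999 and 0.864).

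**Figure D5:**
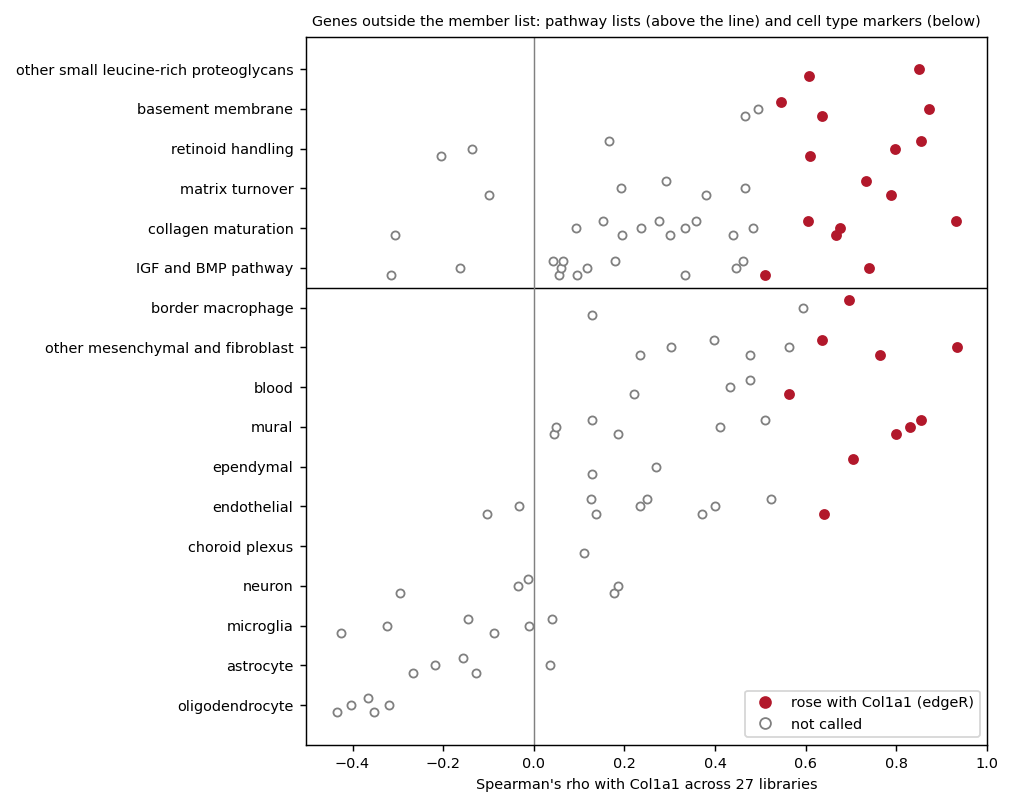
Spearman's rho with Col1a1 over 27 libraries (horizontal) for genes outside the member list with a mean count of at least 10, with pathway lists above the black line and cell type markers below it; filled points rose with Col1a1 by edgeR. Filled points occur in all 6 pathway lists and in 6 of the 11 marker lists, and none lies left of 0.

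The type V genes, which did not follow Col1a1, were then set against the same marker sums, a step added after their values were seen, with p-values adjusted over 33 relations. Col5a2 rose with the blood sum (rho = 0.651, permutation p = 3.8e-04, adjusted p = 0.0125; r = 0.628, or 0.696 without the 2 libraries farthest from its median) and with the mural sum (rho = 0.563, adjusted p = 0.0389; r = 0.463, adjusted p = 0.102). For blood the rho was 0.718 up to 31 and 0.418 from 32, and for mural markers it was 0.724 and 0.373. None of the 22 relations of Col5a1 and Col5a3 passed after adjustment, the closest being blood for Col5a1 (rho = 0.521, adjusted p = 0.0668) and for Col5a3 (rho = 0.504, adjusted p = 0.0696).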

How the data were processed

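RNA-seq of mPFC from 27 rats was used, with 1 library per rat, all in 1 group. The authors deposited raw counts of reads per gene in 1 table. The submitters' processing notes name Trimmomatic, STAR and HTSeq, while versions, genome build and strand setting are not given in the sources used here, so reads of overlapping or antisense genes cannot be told apart. Rows were named from the RefSeq GRCr8 gene list, which matched 28157 of 36865 rows, and rows of 1 gene were added together.

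Normalized counts are counts divided by DESeq2 size factors (DESeq2 1.42.0, R 4.3.3). Genes whose mean count reached 10 were ranked and correlated on log2(normalized count + 1), with 100000 two-sided permutations (Python 3.11.15, scipy 1.17.1). Slopes on Col1a1, library sets and their interaction were tested with edgeR 4.0.16 (quasi-likelihood, TMM, its own expression filter), with Benjamini-Hochberg adjustment over all genes and a threshold of 0.05. The labels do not say what divides the library numbers, so the sets at 31 and 32 are numbers and depths only. The SE of an edgeR value is its size divided by the square root of its F statistic. The slope tests of edgeR and DESeq2 and the dispersion test were checked on simulated counts. The permutation, library set and interaction tests were not.

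The members and lists were chosen with earlier results of these data known. Named are all members, the 10 other genes of highest rho among those with a symbol, and Actb and Gapdh. Up to 4 genes per list are named by highest and lowest rho. Further list genes are named because they rose, after their values were seen. One list gene is not reported here. The parting at a Col1a1 of 100 normalized counts, the type V pairs and the type V relations to marker sums were also added after values were seen. Alternatives were DESeq2, other scalings and filters, other anchor genes, the library set as a term, each set alone, and libraries left out.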

Additional observations from a re-analysis of the deposited data

How the results depend on the processing

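Of the 29 members tested, 26 rose with Col1a1 also under DESeq2, DESeq2 size factors, no filter, the library set as a term, the libraries up to 31 alone (with Col5a2 in and Fn1 out) and Col1a2 as anchor, against 1.58% to 2.74% of all genes, and 24 to 26 with each library left out. The count was 23 in the libraries from 32 (1.63% of all genes), without Col6a2, Dcn and Lum, and 24 with Dcn as anchor or without the 2 libraries farthest from the median or highest in Col1a1 (the latter added after seeing the data), each without Col6a2 and Fn1 and against 1.50% to 1.88% of all genes. The members passing by rho were 25 with TMM scaling (1.98% of all genes), 22 up to 31 (1.08%), 23 without the 2 farthest libraries (1.48%), 10 from 32 (0.461%), and 0 in the 10 libraries with Col1a1 under 100, where fewer rats were ranked. There the rho turned negative for Fmod (-0.200), Aldh1a2 (-0.0788), Ptgds (-0.297), Gjb2 (-0.236) and Thbs2 (-0.176), and the cause was not tested. Col5a3 had a rho of -0.112 without the 2 farthest libraries, 0.636 with Col1a1 under 100 and 0.324 with Col1a1 of at least 100. Its slope was -0.0229 with Col1a2 as anchor, -0.0385 without the 2 farthest, -0.0386 without the 2 highest, and -0.0169 to 0.0202 with each library left out. The members differing between the library sets were 1 with DESeq2 size factors (18.2% of all genes, either direction), 1 with no filter (13.3%), with Col5a1 lost in both, and 1 to 2 with each library left out. All 30 members exceeded counting noise with each library left out. Counting noise limits Lum most, at 10.7% of its variance. No paired analysis was possible because all libraries form 1 group.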
